A study of Mus musculus with 29 samples.

Results

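Collagens, integrins and laminins are the matrix proteins and matrix receptors followed here in cultures of adult mouse cortical neurons, prepared with or without an injury to the animal beforehand. The genes were chosen by their symbols: collagen chains (Col), integrin alpha and beta chains (Itga, Itgb) and laminin alpha, beta and gamma chains (Lama, Lamb, Lamc) that have a row in the authors' deposited table of changed genes. There were 38 such genes among 5826 in the table, of 81 genes with symbols of this form in the GENCODE annotation of the mouse genome. They comprise 7 fibrillar collagens, 3 type IV collagens, 13 other collagens, 6 integrin alpha chains, 5 integrin beta chains and 4 laminin chains.

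Collagens are secreted chains that wind into helices and form fibrils, sheets or filaments; laminins are cross-shaped heterotrimers that, with type IV collagen, build basement membranes. Integrins are receptors of one alpha and one beta chain that bind collagens, laminins, fibronectin or vitronectin outside the cell and the actin cytoskeleton inside it. In the brain, basement membranes surround vessels and underlie the meninges, fibrillar collagens are made chiefly by fibroblasts of meninges and vessels, and laminin is a classical substrate for neurite growth that neurons sense through integrins.

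All cultures came from wild-type adult C57/BL6 mice, and the labels call the cells adult neurons. For lesion cultures a conditioning lesion was made in vivo on the day before plating, and the treatment of naive cultures is given as none. RNA was sequenced after 1, 2, 3, 5 or 7 days in culture, with 3 libraries in every lesion and naive group except naive day 7, which had 2. Animal age, lesion site and the origin of each library (which animal or culture) are missing from the sources used here, so the p-values measure only the spread between libraries.

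The authors' deposited table gives, for each day, a log2 fold change of lesion against naive (positive means higher in lesion), its p-value and an adjusted p-value, but no value for any library. A gene is called risen or fallen below only at the authors' adjusted p under 0.1 from voom and limma. All 38 genes passed that threshold at 1 or more days, because this is what put them in the table. Itgb7, with a smallest adjusted p of 0.0891, and Lama2, with 0.0842, lie closest to the limit in the authors' deposited table. The other 43 annotated genes of these families are not listed, among them Col2a1, Itga1, Itga3, Itga6, Lama5 and Lamb1, and their values are unknown here. SE denotes the standard error that the fold change and p-value of a gene together imply, in log2 units. In RNA from whole cultures, a lower share of cells of one type and less RNA per cell cannot be told apart.

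The authors' deposited table has a rank column that it does not explain; genes known to be abundant have low numbers in it, and it is read here as an order of abundance. Tubb3, a neuronal tubulin, had rank 321 of 19085 and Snap25, a synaptic protein gene, rank 843. The members ranged from rank 205 (Itgb1) to rank 14750 (Col6a6) in the authors' deposited table, and 25 of the 38 lay among the more abundant genes, those up to rank 9542.

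The matrix genes rose together late in culture. At day 5, 34 of the 38 (89.5%) rose and none fell in the authors' deposited table, while 12.8% of all genes tested rose and 11.2% fell that day. As every member is a listed gene, the closer background is the 41.8% of genes in the table that rose at day 5. The median log2 fold change was 3.22 over the members and 0.17 over all genes of the authors' deposited table. At day 7, 18 of 38 (47.4%) rose and none fell; the shares were 3.11% risen and 0.985% fallen among all genes tested, and 10.2% risen among genes of the authors' deposited table. The members' median at day 7 was 1.94, beside 0.14 for all genes of the authors' deposited table.

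**Figure D1:**
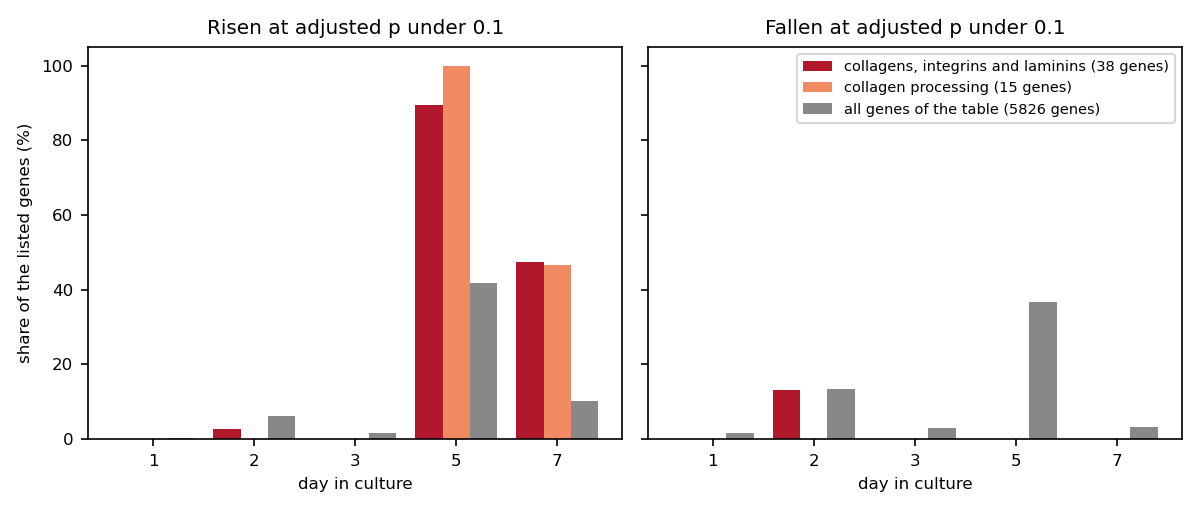
Share of genes risen (left) or fallen (right) at an adjusted p under 0.1 by day in culture, as a percentage of the listed genes of each set; bars start at 0. The red bars of the 38 members reach 89.5% at day 5 and 47.4% at day 7 on the risen side, beside 41.8% and 10.2% for all listed genes in grey; orange bars are collagen-processing genes; on the fallen side the members have calls at day 2 alone.

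Few members were called at the early days. At day 2, 5 members fell (13.2%) and 1 rose (2.63%), close to the 13.4% fallen and 6.2% risen among genes of the authors' deposited table; of all genes tested, 4.08% fell and 1.89% rose. No member was called at day 1 by limma, when 0.529% of genes tested fell and 0.0891% rose. None was called at day 3 either, with 0.943% fallen and 0.534% risen among all genes tested. At an unadjusted p under 0.05 there was 1 member at day 1, Itga5 with a log2 fold change of -1.98, and 9 at day 3, all of them with negative fold changes in the authors' deposited table. The share of all genes under this unadjusted threshold was not counted, so these counts have no background and are descriptions only. Over all members, 30 of 38 fold changes were below 0 at day 3, beside 3173 of 5826 over all genes of the authors' deposited table. The medians were -0.86 for the members and -0.10 for all genes of that table.

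**Figure D2:**
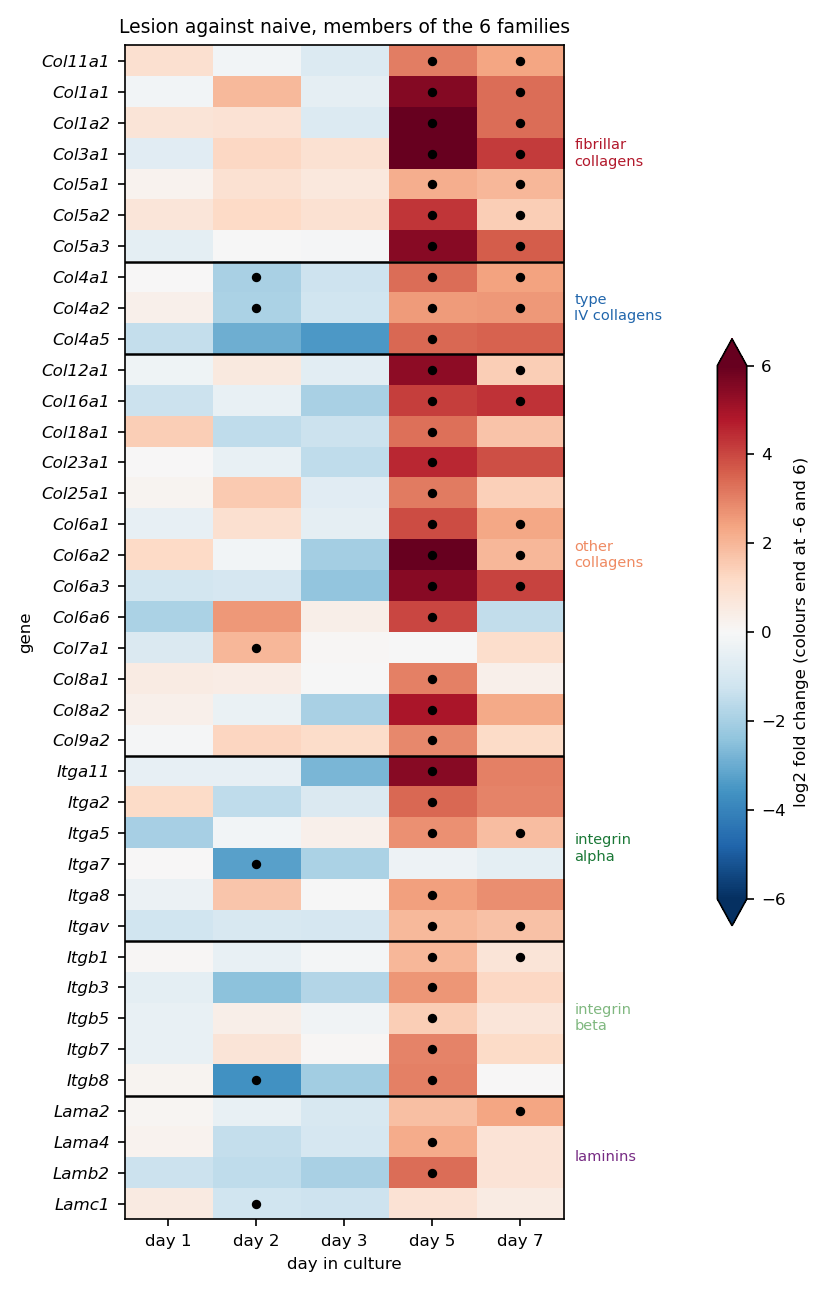
Log2 fold change of lesion against naive for each member (rows, grouped by family) at each day (columns); red is higher in lesion, blue lower, colours end at -6 and 6, and a dot marks an adjusted p under 0.1. Red fills most of the columns of days 5 and 7, with dots on 34 of 38 members at day 5 and 18 at day 7. Dots at day 2 fall on Col4a1, Col4a2, Itga7, Itgb8 and Lamc1 in blue and on Col7a1 in red.

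Promoter sequence is shown for the member with the largest fold change at day 5 (Col3a1) and for the most abundant member (Itgb1). It is also shown for Col6a3, the type VI chain with the smallest adjusted p in the heterogeneity test over the 5 days, described below. Genes that rose together can thus be compared. Each run is the 250 bases before the RefSeq start, on the gene's own strand, build GRCm38.p6: Col3a1 at chr1:45311288-45311537 (plus strand), Col6a3 at chr1:90843972-90844221 (minus strand) and Itgb1 at chr8:128685404-128685653 (plus strand).
Col3a1: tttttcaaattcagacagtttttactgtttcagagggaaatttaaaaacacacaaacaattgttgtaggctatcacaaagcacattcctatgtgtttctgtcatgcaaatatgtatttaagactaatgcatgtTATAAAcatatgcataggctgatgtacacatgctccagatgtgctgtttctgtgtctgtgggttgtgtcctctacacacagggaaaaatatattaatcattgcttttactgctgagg
Col6a3: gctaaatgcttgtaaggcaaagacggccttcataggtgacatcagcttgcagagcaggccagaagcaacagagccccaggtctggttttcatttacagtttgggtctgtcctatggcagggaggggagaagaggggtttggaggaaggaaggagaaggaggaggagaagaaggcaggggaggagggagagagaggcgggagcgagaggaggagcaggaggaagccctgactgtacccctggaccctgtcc
Itgb1: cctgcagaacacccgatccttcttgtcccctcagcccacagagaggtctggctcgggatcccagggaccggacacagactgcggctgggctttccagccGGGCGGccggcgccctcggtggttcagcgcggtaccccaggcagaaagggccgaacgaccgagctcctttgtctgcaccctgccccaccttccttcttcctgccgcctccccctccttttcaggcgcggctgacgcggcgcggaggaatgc
Capitals mark matches, on either strand, to the motifs searched. The letters searched for the TATA box were TATAAA. Those for the GC box were GGGCGG, those for the CAAT box were CCAAT, and those for the AP-1 element were TGANTCA. Col3a1 holds 1 TATA box match, Itgb1 holds 1 GC box match, and Col6a3 holds none of the motifs in this window. Of the 31 members with a window in the RefSeq table, 61.3% hold a GC box match, beside 32.7% of all 32851 windows of this length. The CAAT box is found in 35.5% of the members and 33.8% of all windows, the TATA box in 3.23% and 12.4%, and the AP-1 element in 3.23% and 6.75%. A member was counted if any of its windows held a match, while the background counts each window singly. The shares are therefore not strictly alike, and the matches describe letters only.

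Fibrillar collagens had the highest family median at day 5, a log2 fold change of 5.47, and all 7 in the table rose at both days 5 and 7. Col1a1 (chr11:94936224-94953042, GENCODE vM21) encodes a chain of type I collagen, the main fibrous collagen of connective tissue. Its log2 fold changes at days 1, 2, 3, 5 and 7 were -0.18, 1.94, -0.53, 5.53 and 3.34 in the authors' deposited table. At day 5 this is a 46.1-fold difference (SE 0.58 in log2, adjusted p = 1.23e-07) and at day 7 a 10.2-fold difference (SE 0.35, adjusted p = 3.45e-07), per the authors' deposited table. Col1a1 was thus higher in lesion than in naive cultures at the late days, while its day 2 value missed the threshold (adjusted p = 0.111 by limma).

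Col1a2, the other chain of type I collagen, had log2 fold changes of 0.79, 0.88, -0.84, 8.37 and 3.33 over the same days in the authors' deposited table. At day 7 the type I chains had nearly the same value, and at day 5 their intervals, 4.34 to 6.72 for Col1a1 and 5.53 to 11.21 for Col1a2, overlapped. Col3a1 (chr1:45311538-45349706), the type III chain that shares fibrils with type I, had -0.68, 1.25, 0.91, 11.14 and 4.21 in the authors' deposited table. The SE of Col3a1 at day 5 was 2.32 and its implied 95% interval ran from 6.43 to 15.86. With no counts in the file, it is not known whether the naive libraries held any Col3a1 reads at day 5, and no linear fold is given.

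The type V chains, minor components that regulate fibril width, rose less steeply or with wider errors. Col5a1 had log2 fold changes of 0.20, 0.93, 0.64, 2.19 and 2.02 in the authors' deposited table, with SEs of 0.32 at day 5 (adjusted p = 2.07e-05) and 0.29 at day 7 (adjusted p = 7e-05). It was positive at every day and had nearly the same value at days 5 and 7. Col5a2 gave 0.71, 1.21, 0.93, 4.29 (SE 0.80) and 1.49 (SE 0.43), and Col5a3 gave -0.56, -0.00, -0.06, 5.47 (SE 1.16) and 3.64 (SE 0.84), in the authors' deposited table. Col11a1, a type XI chain known from cartilage fibrils, rose by 3.08 (SE 0.69) at day 5 and by 2.36 (SE 0.64) at day 7 in the authors' deposited table. Of the family, Col2a1, Col11a2, Col24a1 and Col27a1 are not listed.

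**Figure D3:**
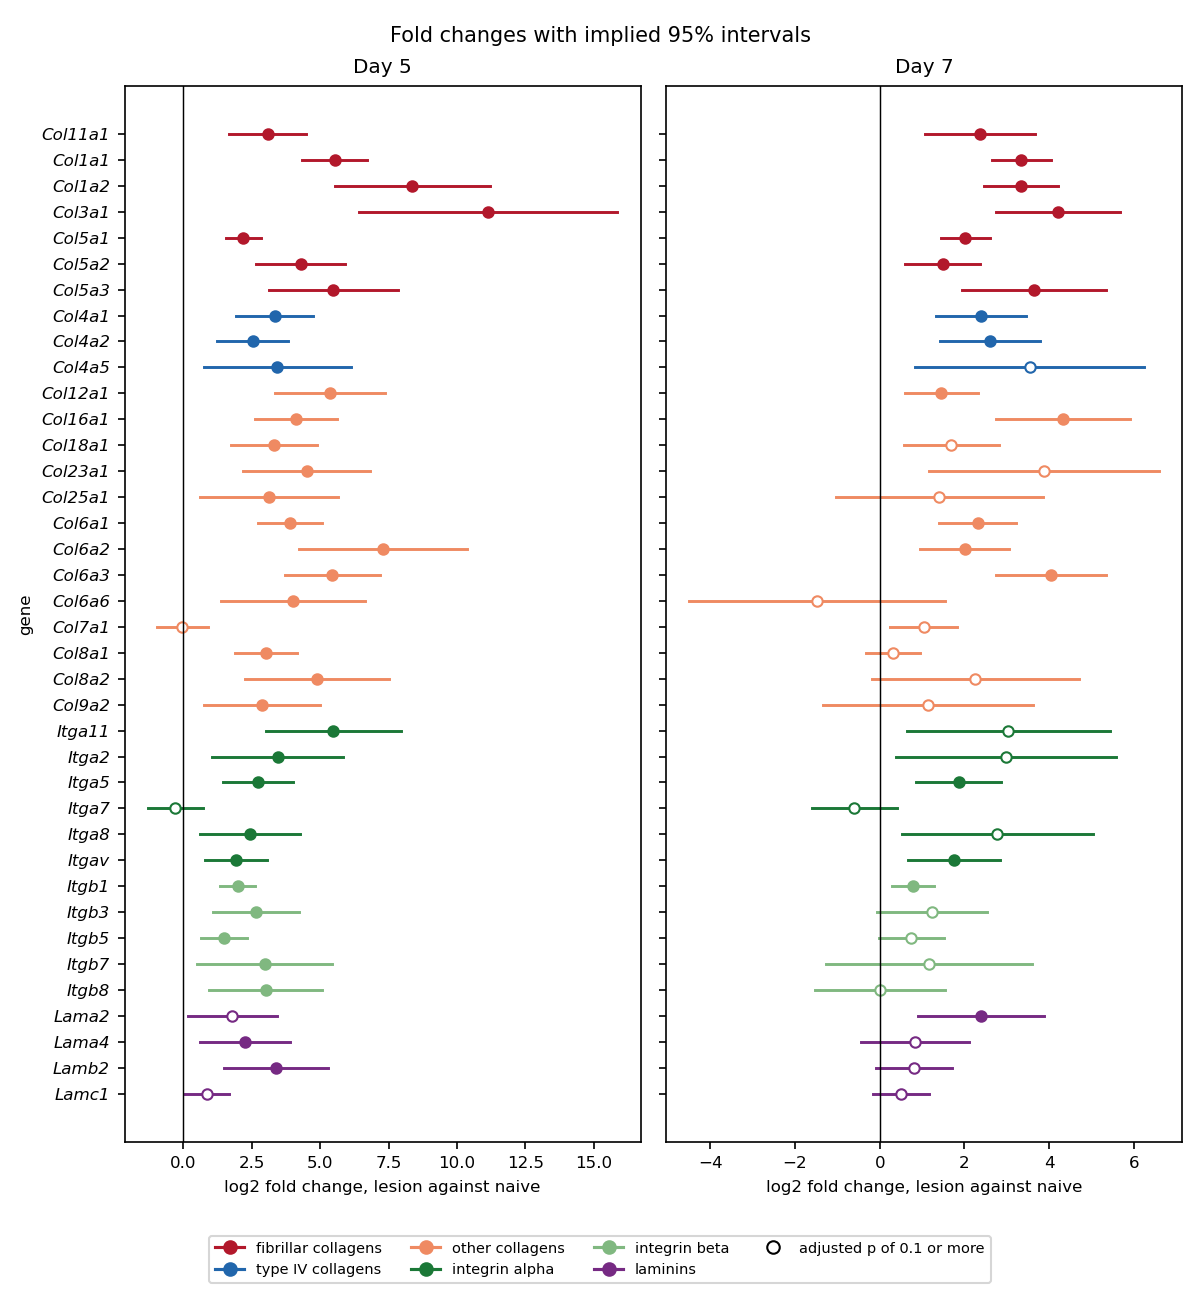
Log2 fold change of each member at day 5 (left) and day 7 (right; the horizontal axes differ) with its implied 95% interval; filled points have an adjusted p under 0.1 and colours give the family. Col3a1 is farthest right at day 5, at 11.14 with an interval of 6.43 to 15.86, and at day 7 its value is 4.21; Itga7 and Col7a1 lie just left of 0 at day 5.

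Of the 3 listed type IV collagens, network formers of basement membranes, Col4a1 and Col4a2 fell at day 2 and all 3 rose at day 5. Col4a1 (chr8:11198423-11312826) and Col4a2 (chr8:11312805-11449287) encode the chains found in nearly every basement membrane and lie head to head on opposite strands. In GENCODE their first exons share 22 bases, chr8:11312805-11312826, shown on the plus strand (build GRCm38.p6) because each gene starts at one end of the stretch, with a GC box match in capitals.
Col4a1 and Col4a2: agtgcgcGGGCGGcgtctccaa
Col4a1 had log2 fold changes of 0.04, -1.96, -1.22, 3.33 and 2.39 at days 1, 2, 3, 5 and 7 in the authors' deposited table. Col4a2 had 0.31, -1.90, -1.20, 2.53 and 2.60 in the authors' deposited table. The SEs at days 2, 5 and 7 were 0.52, 0.69 and 0.52 for Col4a1 and 0.53, 0.64 and 0.58 for Col4a2. The neighbouring genes followed the same course and had calls at the same days: fallen at day 2 (adjusted p = 0.0333 and 0.0435), risen at day 5 (0.00141 and 0.00757) and risen at day 7 (0.0126 and 0.0153), by limma in the authors' deposited table. They are the 2 members called at 3 days.

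The fold change at day 5 exceeded that at day 2 by 5.30 log2 units for Col4a1 (SE 0.86) and by 4.44 for Col4a2 (SE 0.83). Such differences use the same day values that put the genes in the table. For single genes the day 5 minus day 2 differences are therefore given as descriptions, without a p-value. Adjusted p-values given below for single genes between days 5 and 7, or over the 5 days, share this limit. Col4a5, a chain of the more restricted type IV networks, had -1.41, -2.94, -3.44, 3.43 and 3.54 in the authors' deposited table; the call was made at day 5 alone (SE 1.32, adjusted p = 0.0709). Its day 7 value, slightly higher, missed the threshold (SE 1.33, adjusted p = 0.163).

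**Figure D4:**
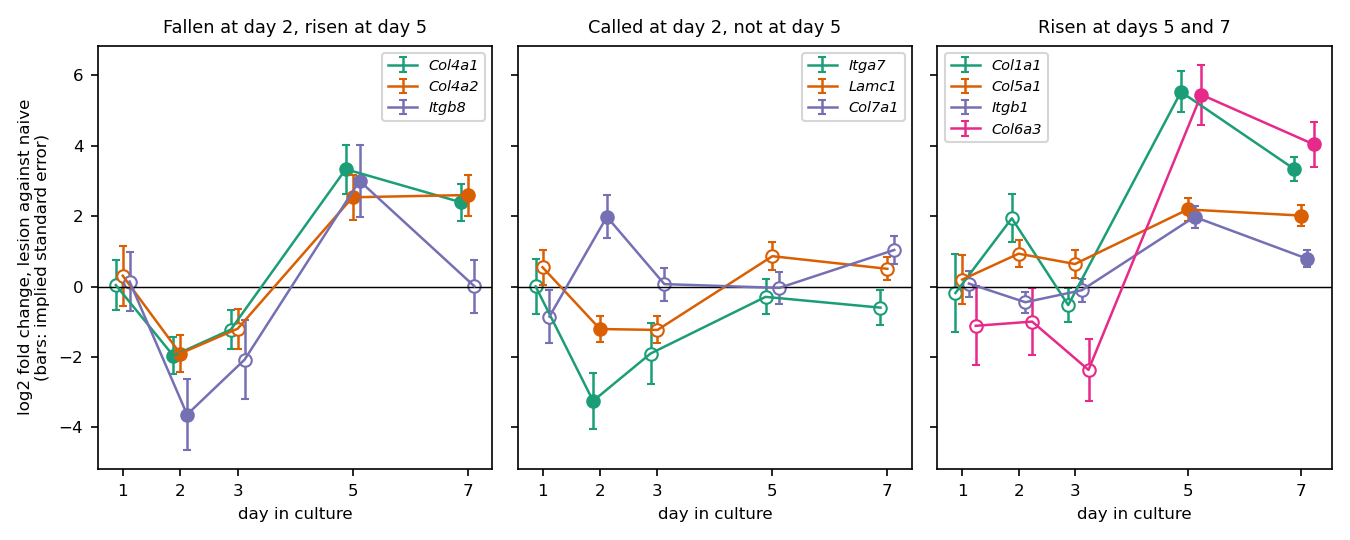
Log2 fold change of selected members by day in culture; bars are implied standard errors, filled points have an adjusted p under 0.1, and points are shifted sideways for legibility. Col4a1, Col4a2 and Itgb8 go from between -3.63 and -1.90 at day 2 to between 2.53 and 3.33 at day 5 (left); Itga7, Lamc1 and Col7a1 have their filled point at day 2 (middle); Col1a1, Col5a1, Itgb1 and Col6a3 have filled points at days 5 and 7 (right).

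Among the other collagens, 12 of 13 rose at day 5 and 5 rose at day 7. The 4 listed chains of type VI collagen, which forms beaded filaments around cells, each rose at day 5, while Col6a4 and Col6a5 are not listed. Col6a1 rose by 3.90 (SE 0.57, adjusted p = 2.24e-05), Col6a2 by 7.30 (SE 1.51), Col6a3 by 5.45 (SE 0.85, adjusted p = 5.75e-05) and Col6a6 by between 1.37 and 6.63 (implied 95% interval), as log2 fold changes from the authors' deposited table. At day 7 the log2 fold changes were 2.31 for Col6a1, 2.01 for Col6a2 and 4.03 for Col6a3, all of them called, and -1.47 for Col6a6, which was not (adjusted p = 0.689), in the authors' deposited table. Col6a3 had stood at -1.11 on day 1 and -2.37 on day 3, without a call. The difference of Col6a3 between days 5 and 2 was 6.44 (SE 1.27).

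Col12a1 and Col16a1, collagens that attach to the surface of fibrils, rose at both late days. Col12a1 had log2 fold changes of 5.36 (SE 0.98) at day 5 and 1.46 (SE 0.42) at day 7, while Col16a1 had 4.13 (SE 0.74) and 4.32 (SE 0.78), in the authors' deposited table. Col9a2, another fibril-associated chain, rose at day 5 alone by 2.87 (SE 1.04) in the authors' deposited table. Col18a1, a basement membrane collagen whose end fragment is endostatin, had 1.46, -1.50, -1.28, 3.31 and 1.69; its call at day 5 was followed by an adjusted p of 0.102 at day 7 in the authors' deposited table.

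The short-chain collagens Col8a1 and Col8a2, known from vessel walls and the cornea, rose at day 5 by 3.02 (SE 0.56) and 4.88 (SE 1.30) in the authors' deposited table. Col8a1 then stood at 0.31 at day 7, and it is the 1 member whose fold change differed between days 5 and 7 (difference 2.71, SE 0.64, adjusted p = 0.0331, from errors implied by limma). The membrane-spanning collagens Col23a1 and Col25a1, the latter made by neurons, rose at day 5 by 4.50 (SE 1.14) and 3.14 (SE 1.24) in the authors' deposited table. Col7a1, the anchoring fibril collagen of skin, was the exception. It rose at day 2 by 1.98 (SE 0.61, adjusted p = 0.0679) and was at -0.04 (SE 0.45, adjusted p = 0.962) at day 5, when all other listed collagens rose, in the authors' deposited table. An interval of -0.96 to 0.89 bounds the day 5 difference of Col7a1 to less than 2-fold in either direction.

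Of the 6 listed integrin alpha chains, 5 rose at day 5 and Itga7 did not pass the test. The other 12 annotated alpha chains are not listed, among them the laminin receptor chains Itga3 and Itga6. Itga11 and Itga2, which pair with the beta 1 chain as collagen receptors (Itga2 also binds laminin), rose at day 5 by 5.48 (SE 1.21, adjusted p = 0.00251) and 3.45 (SE 1.18, adjusted p = 0.0445) in the authors' deposited table. Their day 7 values of 3.03 and 2.97 missed the threshold, with adjusted p = 0.178 and 0.232 in the authors' deposited table. Itga5, the alpha chain of the fibronectin receptor, had log2 fold changes of -1.98, -0.15, 0.29, 2.73 (SE 0.63) and 1.86 (SE 0.49) over the days in the authors' deposited table, with calls at days 5 and 7. Itgav, the alpha chain of vitronectin receptors, had -1.19, -0.98, -0.99, 1.92 (SE 0.56) and 1.75 (SE 0.53), again with calls at days 5 and 7. Itgav was thus below 0 at the first 3 days and above it at the last 2. Itga8, a receptor chain for nephronectin, rose at day 5 by 2.44 (SE 0.90, adjusted p = 0.0606) in the authors' deposited table.

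Itga7 (chr10:128933818-128958282), a laminin receptor chain that pairs with beta 1, had log2 fold changes of 0.00, -3.25, -1.90, -0.29 and -0.60 in the authors' deposited table. It fell at day 2 (SE 0.79, adjusted p = 0.0235 by limma) and was not called at any other day. At day 5 the interval of Itga7, -1.30 to 0.71, did not overlap those of the other 5 alpha chains except Itga8, from 0.61 to 4.28. The fold change of Itga7 was higher at day 5 than at day 2 by 2.96 (SE 0.93).

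All 5 listed integrin beta chains rose at day 5. Itgb1 (chr8:128685654-128733200), the most abundant member and the shared partner of most alpha chains, had log2 fold changes of 0.08, -0.45, -0.10, 1.98 and 0.79 in the authors' deposited table. The rise of Itgb1 at day 5 was 3.94-fold (SE 0.32 in log2, adjusted p = 8.32e-05) and that at day 7 was 1.73-fold (SE 0.24, adjusted p = 0.085), per the authors' deposited table. The errors of Itgb1 are the smallest among the integrins, and its day 5 value exceeded the day 2 value by 2.42 (SE 0.44).

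Itgb3, Itgb5 and Itgb8 each pair with the alpha V chain. At day 5 they rose by 2.65 (SE 0.78), 1.49 (SE 0.41) and 3.00 (SE 1.02) in the authors' deposited table, and none of the 3 was called at day 7, where they stood at 1.22, 0.75 and 0.01. Itgb8 (chr12:119158022-119238802) forms, with alpha V, a receptor that activates latent TGF-beta and is needed for normal brain vessels. It had fallen at day 2 by 3.63 (SE 1.00, adjusted p = 0.0425). Against naive cultures Itgb8 was thus lower at day 2, higher at day 5 and at 0.01 at day 7 in the authors' deposited table. The day 5 minus day 2 difference of Itgb8 was 6.63 (SE 1.43). Itgb3 followed a like course without a call at day 2, where it stood at -2.45 (SE 0.88, adjusted p = 0.122) in the authors' deposited table. Itgb7, a chain of lymphocyte integrins, rose at day 5 by 2.96 (SE 1.21, adjusted p = 0.0891), near the threshold, in the authors' deposited table.

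Laminin chains had the lowest family median at day 5, a log2 fold change of 2.01. Lamb2 and Lama4, a beta chain and the alpha chain typical of vessel laminins, rose at day 5 by 3.37 (SE 0.94, adjusted p = 0.0143) and 2.25 (SE 0.81, adjusted p = 0.0542) in the authors' deposited table. At day 7 Lamb2 stood at 0.81 and Lama4 at 0.84, without a call. Lama2, the alpha chain of muscle and vessel-associated laminins, was called at day 7 alone, at 2.39 (SE 0.74, adjusted p = 0.0842), beside 1.78 (SE 0.80, adjusted p = 0.121) at day 5 in the authors' deposited table.

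Lamc1 (chr1:153218922-153332786), the gamma chain of most laminins, had log2 fold changes of 0.55, -1.21, -1.23, 0.86 and 0.50 in the authors' deposited table. It fell at day 2 (SE 0.37, adjusted p = 0.0679), had nearly the same value at day 3 (SE 0.38, adjusted p = 0.122), and its day 5 value was not called (SE 0.40, adjusted p = 0.136), by limma. All 4 laminin chains were below 0 at days 2 and 3 and above 0 at days 5 and 7. The fold changes of Lamc1, Lamb2 and Lama4 were higher at day 5 than at day 2 by 2.07 (SE 0.55), 4.89 (SE 1.31) and 3.68 (SE 0.99).

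Of the 34 members that rose at day 5, 17 (50.0%) also rose at day 7, which are 94.4% of the 18 risen at day 7; over all genes of the authors' deposited table, 13.8% of those risen at day 5 also rose at day 7, and these are 56.7% of those risen at day 7. The shared 17 comprise the 7 fibrillar collagens, Col4a1 and Col4a2, 5 other collagens and the integrin chains Itga5, Itgav and Itgb1. No laminin is among them. In 32 of 38 members the fold change was higher at day 5 than at day 7 in the authors' deposited table. The like share over all listed genes was not counted, and most members are listed because of a call at day 5. Between these days 1 difference, that of Col8a1, passed an adjusted p of 0.05. That is 2.63% of the members, beside 3.48% of genes of the table and 1.06% of all genes tested. The other members missed this adjusted p of 0.05, which counts all genes tested. That does not show their day 5 and day 7 values to be equal. Col1a2, for example, differed by 5.04 (SE 1.46, adjusted p = 0.0797, from errors implied by limma).

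The 5 day values differed from each other in 27 of 38 members at an adjusted p under 0.05, by a heterogeneity test on the fold changes and errors implied by limma, or 71.1%. The share was 50.1% among genes of the table, the closer background, and 15.3% among all genes tested, where unlisted genes count as no difference. Between days 5 and 2 the fold change differed in 25 members (65.8%), beside 33.1% of genes of the table and 10.1% of all genes tested, and in all 25 it was higher at day 5. This pair of days was chosen with earlier results of these data known, and days 1 and 3 were not set against day 5. The members are genes that were listed because of a call at some day, most often day 5, and the same day 5 values enter the tests.

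Day 5 fold changes were also read against abundance, since listed genes of low rank were more often lower in lesion cultures. Up to rank 9542, 22 of 25 members (88%) rose at day 5, beside 9.92% of all genes tested and 26.3% of listed genes in that range, and 16 of 25 (64%) rose at day 7, beside 3.52% and 9.32%. The median log2 fold change at day 5 of these 25 members was 3.08, while that of all listed genes in that range was -0.65 in the authors' deposited table. The 13 members beyond rank 9542 had a median of 3.43, with a median implied SE of 1.18, and 12 of them rose at day 5. With errors of that size a gene is listed mainly when its fold change is large. Their median is therefore not compared with that of the 25 more abundant ones. The share risen among all listed genes beyond rank 9542 was not counted.

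**Figure D5:**
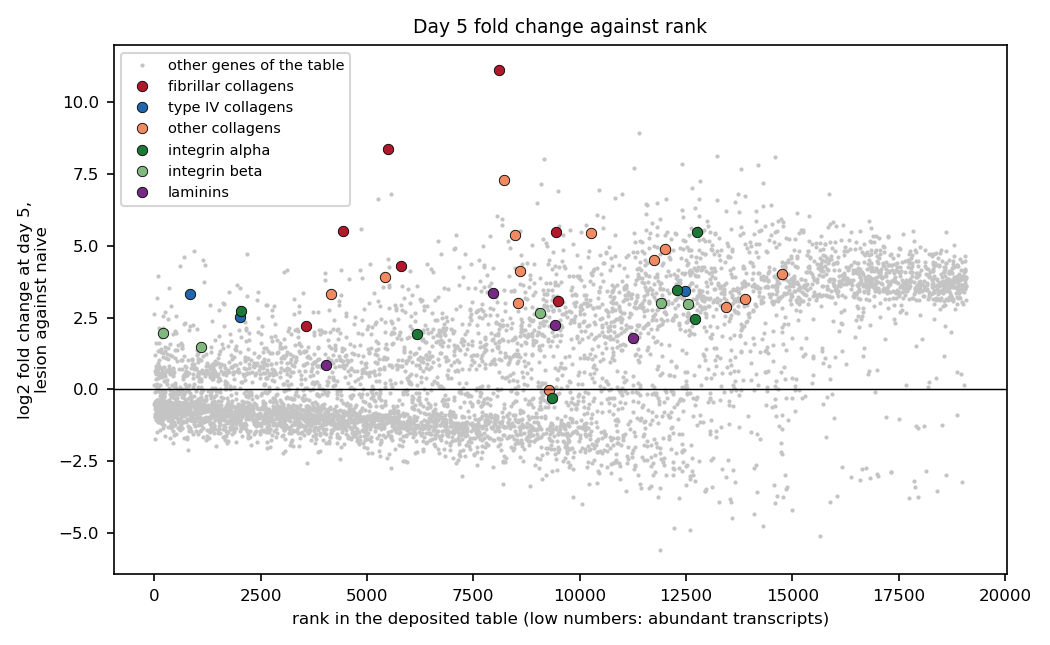
Log2 fold change at day 5 against rank for all 5826 genes of the deposited table (grey) and the 38 members (coloured by family); low ranks are abundant transcripts. Among abundant genes most grey points lie below 0 (median -0.65 up to rank 9542), and 22 of the 25 members there were called above it, from Itgb1 at rank 205 to Col11a1 at rank 9491.

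Listed genes that process collagen, other matrix ligands and other matrix receptors also rose at day 5. Of 20 collagen-processing genes 15 are listed, and all 15 rose at day 5, with 7 risen at day 7 and none fallen at either day. They include Lox (4.61, adjusted p = 1.65e-07 at day 5), which cross-links collagen, Serpinh1 (4.31, adjusted p = 3.89e-07), the collagen chaperone, and Sparc (3.19, adjusted p = 9.23e-06), a collagen-binding matricellular protein, as log2 fold changes from the authors' deposited table. Of 16 other matrix ligands 10 are listed; all 10 rose at day 5, and 2 of them, Fn1 and Nid1, had fallen at day 2, with log2 fold changes of -1.60 and -2.40 in the authors' deposited table. Nid1 encodes nidogen, which links laminin to type IV collagen, and Fn1 encodes fibronectin. Fbln2 (4.09, adjusted p = 9.07e-09) and Spp1 (3.96, adjusted p = 9.23e-06), the gene of osteopontin, had the smallest adjusted p at day 5 in the authors' deposited table.

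Receptors and adaptors other than integrins gave smaller values. Of 12 other matrix receptors 7 are listed and all 7 rose at day 5, with a median log2 fold change of 1.76; in the authors' deposited table Sdc2, a syndecan, rose by 1.76 (SE 0.31, adjusted p = 0.000241). Of 21 integrin adaptors and signalling genes 8 are listed, and 6 rose at day 5, with a median of 0.90 over the 8. Zyx (2.13, adjusted p = 0.000313) and Vcl (2.53, adjusted p = 0.00141), focal adhesion proteins, rose at day 5, while Ptk2, the focal adhesion kinase gene, stood at -0.49 (adjusted p = 0.178), in the authors' deposited table. Lims2 was called at the early days, at -3.19 on day 2 and -3.87 on day 3, and stood at 0.22 on day 5 in the authors' deposited table.

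Markers of several other cell types moved at the same days, and their part in the matrix changes was not tested. Among all listed genes, 13.4% fell at day 2, 3.09% fell at day 3 and 36.7% fell at day 5. Those risen were 41.8% at day 5 and 10.2% at day 7. Over all genes tested, 4.08%, 0.943% and 11.2% fell at days 2, 3 and 5, and 12.8% and 3.11% rose at days 5 and 7. Of 14 fibroblast, mural and meningeal markers 12 are listed, and 11 rose at day 5 and 3 at day 7, with medians of 3.66 and 0.73; Tagln stood at 4.20 and Pdgfrb at 3.19 at day 5 in the authors' deposited table. All 6 cycling-cell genes rose at day 5 (median 3.81) and 1 rose at day 7, and 3 of 9 astrocyte markers are listed and rose at day 5. Of 10 endothelial markers 8 are listed; 6 fell at day 2 and 4 at day 3, with medians of -2.48 and -2.17, at the day when Col4a1, Col4a2, Itgb8, Itga7 and Lamc1 fell and the day after it. At day 5 1 endothelial marker, Esam, rose, by 2.00 in the authors' deposited table. Oligodendrocyte lineage genes, of which 6 of 10 are listed, gave 4 fallen at day 2, 2 fallen at day 3, 2 risen at day 5 and 1 risen at day 7. The risen ones are Cspg4 (4.27 at day 5 and 2.55 at day 7) and Pdgfra (2.60 at day 5), which are also on the fibroblast and mural list, in the authors' deposited table. Of 10 neuronal markers 8 are listed, and 6 fell at day 5, with a median log2 fold change of -1.05. Of listed genes up to rank 9542, where Tubb3 and Snap25 lie, 52.8% fell that day, with a median of -0.65. None of the neuronal markers was called at day 7 by limma in the authors' deposited table. Microglial markers are listed for 2 of 11 genes, Csf1r and Tmem119, in the authors' deposited table. Csf1r fell at day 1 (-2.26) and stood at -0.12 at day 5 and 1.09 at day 7 without a call, and Tmem119 rose at day 5 (5.06) and day 7 (4.60). Levels per library are not in the table, so the abundance of these cells in each culture is unknown here.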

How the data were processed

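RNA from 29 libraries in 10 groups was sequenced by the authors after an ultra-low input preparation, per the labels' protocols; reads were aligned with STAR to mm10, per the submitters' processing notes. Counting, filters, scaling and strand: not given in the sources used here. The authors used voom and limma and deposited log2 fold changes with raw and Benjamini-Hochberg adjusted p-values, per the file headers and name. The deposited rank, a score, is unexplained. No counts per library were used, so depth is unknown. Adjusted p-values of the deposited table were rebuilt for 19085 tests to a relative deviation of at most 9.15e-13.

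An implied standard error was derived for each gene and day from a t distribution with 33 degrees of freedom, the value at which errors of a gene varied least over days among 1673 abundant genes (rank up to 4771); 19 is the residual value of 10 group means. Day values from the limma fit across all genes were compared with Cochran's heterogeneity as an F test. Day 5 was set against day 2 and against day 7 with t statistics. The pair with day 2 was chosen with earlier results of these data known, and the pair with day 7 after seeing the data. Each test was adjusted over all genes tested, unlisted genes counting as no difference, at a threshold of 0.05. These steps were also run on simulated data in which a gene had the same spread at every day and no genes were unlisted. That run does not cover the listing of genes or a spread that varies between days. The members and all lists were chosen with earlier results of these data known. Any member may be named; full statistics go to the 3 with the smallest adjusted p per family and those called at 2 or more days, and values of other members were added after they were seen. Companion lists name up to 3 genes by adjusted p; Fn1, Nid1, Ptk2, Lims2, Pdgfrb, Tagln, Esam, Cspg4, Pdgfra, Csf1r and Tmem119 were chosen after their values were seen. Positions are from GENCODE vM21 (GRCm38), and promoters from RefSeq (31 of 38 members matched). Exons of other genes cover over 5% of the exonic bases of 2 members, Itga8 and Itgav, so that reads could be shared there. Python 3.11.15, numpy 2.4.6, scipy 1.17.1 and pandas 2.3.3 were used.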

Additional observations from a re-analysis of the deposited data

Results flagged for a closer look

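The fold changes of 27 members differed between the 5 days by the heterogeneity test, which is what set them apart; the test uses the same day values that put these genes in the table. Adjusted p-values, from errors implied by limma, were 2.41e-05 for Col1a1, 4.94e-05 for Col6a3, 9.00e-05 for Col4a1, 0.000138 for Col16a1, 0.000247 for Col4a2 and 0.000453 for Col1a2. They were 0.00127 for Itga5, 0.00167 for Itgb1, 0.00194 for Col18a1, 0.00253 for Itgav, 0.00601 for Itga11, 0.00608 for Col6a1, 0.00617 for Lamc1, 0.00708 for Col12a1, 0.00876 for Col6a2 and for Itgb3, 0.0088 for Col5a3 and 0.00986 for Col4a5. The others were Lamb2 (0.0116), Itgb8 (0.0117), Col3a1 (0.0129), Col8a1 (0.0241), Col23a1 (0.0269), Col11a1 (0.0300), Lama4 (0.0354), Col5a1 (0.0379) and Itga2 (0.0458). Pairs of days gave 25 members that differed between days 5 and 2 and 1, Col8a1, that differed between days 5 and 7.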

How the results depend on the processing

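At an adjusted p under 0.01, the members called were 0 at day 2, 20 at day 5 and 7 at day 7, and those differing between days 5 and 2 were 11 and between days 5 and 7 were 0. Restricted to ranks up to 9542, 22 of 25 members were called at day 5. With 19 degrees of freedom, 2 members differed between days 5 and 7. The other counts stayed within 1.5 times and the medians within the median implied error, 31 comparisons in all, under thresholds of 0.05 or 0.01, a least absolute log2 fold change of 1, ranks up to 9542, means in place of medians, 19 degrees of freedom or unadjusted p. They include the counts of 0 members called at days 1 and 3, which stricter settings or fewer genes could not change. Of 45 calls of single genes given full statistics, 7 did not pass 0.05 and 21 did not pass 0.01. No paired analysis was possible because the file holds comparisons and no values per library; for the same reason fits without each replicate were not run. Depth limits cannot be given, and fold changes of rare members rest on wide errors.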
